A study of Mus musculus with 6 samples.

Results

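The proteasome genes were taken from the deposited expression table as all gene names that begin with Psm, a letter from a to g and a number. The rule found 50 of the 25785 gene names in the table, and for each gene the transcript row with the highest mean over the 6 libraries was used. Of these, 19 are Psma and Psmb genes, which encode the 20S core, and 21 are Psmc and Psmd genes, grouped as the 19S cap. The other 10 encode activators, an inhibitor and assembly factors (Psme, Psmf and Psmg). The cap group holds Psmc3ip, a meiotic recombination factor that shares only the name, and Psmd5, Psmd9 and Psmd10, which are assembly factors and not part of the finished particle.

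RNA came from whole hippocampus, a forebrain region needed for memory, of mice aged P30 (postnatal day 30) whose strain is labelled C57B1/6J. The 3 control libraries carry the genotype wild type, and the 3 others carry the genotype PTCHD1 mutant, marked ko in their titles. The labels do not describe the mutation, the sex of the mice or the litters, and no treatment is given for either group. Whether each library is a different animal is not stated, so p-values measure the spread between libraries, which may be technical. Ptchd1 encodes a patched-domain membrane protein linked in humans to intellectual disability and autism.

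The proteasome is the protease that degrades most short-lived and damaged proteins of the cell, usually after they have been tagged with chains of ubiquitin. Its 20S core is a barrel of stacked rings, with alpha subunits that gate the entrance and beta subunits that line the chamber, some of which cut peptide bonds. The 19S cap binds the core, recognises ubiquitin chains, removes them, and unfolds the substrate with a ring of ATPases. In neurons, proteasome activity is known to shape synapses by turning over receptors and scaffold proteins.

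Values are given as normalized read equivalents, that is, the coverage of a transcript as normalized by the authors, divided by 42 bases, the read length inferred from the steps of the values. Unnormalized read equivalents summed to between 12450000 and 23750000 per library. Ptchd1 itself stood at 323, 389 and 411 normalized read equivalents in wild-type replicates 1, 2 and 3 and at 181, 150 and 130 in mutant replicates 1, 2 and 3. It was lower in all 3 mutant libraries (log2 difference -1.28 ± 0.14 SE, limma adjusted p = 0.0342) and was the 1 gene of 15717 tested that passed an adjusted p of 0.05. Base composition moved with the groups over all genes. Spearman's rho between a library's log2 deviation and transcript GC content was -0.01, -0.48 and -0.18 in the wild-type libraries and 0.43, 0.01 and 0.08 in the mutant libraries. The summed level of 7 excitatory neuron markers ran from 41481 to 44439 in wild-type and from 47366 to 50108 in mutant libraries, and that of 4 astrocyte markers from 23738 to 24512 and from 22216 to 23042. Neither sum overlapped between the groups. Camk2a was the largest term of the neuron sum and Slc1a3 that of the astrocyte sum. By gene, the groups were apart for 3 of 7 neuron markers, higher, and 1 of 4 astrocyte markers, lower, beside 12.3% and 12% of all tested genes. The sums of 5 oligodendrocyte markers (64649 to 75843 in wild type, 55213 to 69896 in mutants) and 4 endothelial markers (1481 to 2027 and 1720 to 1919) overlapped. Of the neuron markers 5 of 7 had positive differences, 3 of them at an unadjusted p under 0.05, with Fibcd1 and Neurod6 negative, and the 4 astrocyte markers were negative, 1 of them at that level. The part of cell makeup in the values that follow was not tested. In bulk tissue, fewer cells of a type and less RNA per cell cannot be told apart. The summed level of 5 choroid plexus markers ran from 731 to 52807 in wild-type libraries, the highest being replicate 1, and from 1071 to 2667 in mutant libraries.

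The control regions of 4 members are shown. Psma5 and Psmb3 have the largest differences of the core genes, and Psmd6 and Psmd11 have the most negative and the most positive difference of the cap particle subunits. Each is the 250 bases before the annotated start from RefSeq (GRCm38.p6), written 5' to 3' on the gene's strand, with matches to 3 searched motifs in capitals. The motifs are TGANNNNGC, the core of the antioxidant response element bound by Nfe2l1 and Nfe2l2, CCAAT, and CCGGAAG, the core of sites for ETS factors. They were searched on both strands, so CCAAT may appear as ATTGG and CCGGAAG as CTTCCGG, and no matches overlap in these 4 promoters. Psma5 lies on the plus strand at chr3:108256676-108256925, Psmb3 on the plus strand at chr11:97703184-97703433, Psmd6 on the minus strand at chr14:14120946-14121195, and Psmd11 on the plus strand at chr11:80428365-80428614.
Psma5: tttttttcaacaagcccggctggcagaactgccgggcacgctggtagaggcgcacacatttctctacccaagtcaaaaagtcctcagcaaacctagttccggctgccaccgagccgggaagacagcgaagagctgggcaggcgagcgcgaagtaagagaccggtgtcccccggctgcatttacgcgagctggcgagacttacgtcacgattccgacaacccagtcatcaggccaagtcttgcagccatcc
Psmb3: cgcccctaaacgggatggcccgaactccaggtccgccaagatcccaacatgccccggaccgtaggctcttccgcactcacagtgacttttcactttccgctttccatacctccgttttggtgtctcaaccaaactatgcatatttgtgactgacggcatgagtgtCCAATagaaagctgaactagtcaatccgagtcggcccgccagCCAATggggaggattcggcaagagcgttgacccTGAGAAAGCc
Psmd6: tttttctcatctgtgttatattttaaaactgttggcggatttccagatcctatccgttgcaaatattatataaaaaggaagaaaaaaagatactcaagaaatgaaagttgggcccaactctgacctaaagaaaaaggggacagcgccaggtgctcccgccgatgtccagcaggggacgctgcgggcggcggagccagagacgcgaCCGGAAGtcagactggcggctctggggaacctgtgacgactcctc
Psmd11: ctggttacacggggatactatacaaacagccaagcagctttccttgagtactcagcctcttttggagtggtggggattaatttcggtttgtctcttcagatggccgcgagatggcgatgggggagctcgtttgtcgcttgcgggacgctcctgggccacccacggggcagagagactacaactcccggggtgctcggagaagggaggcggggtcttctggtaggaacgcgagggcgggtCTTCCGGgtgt

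Psma5 holds none of the 3 motifs in this window, and Psmb3 holds 2 CCAAT matches and TGANNNNGC beginning 10 bases before the start. Psmd6 and Psmd11 each hold 1 CCGGAAG match, 45 and 11 bases before the start. The RefSeq table holds 45 promoters of 42 member genes. CCGGAAG, a motif chosen after the authors' motif table was read, was found in 10 of 19 promoters of the cap genes (52.6%) and in 1 of 16 promoters of the core genes (6.25%), beside 6.91% of all 32851 promoters in the table. Without Psmc3ip the cap count was 9 of 18 promoters. By gene, it was found in 9 of 18 cap genes and 1 of 15 core genes, as Psmc2 and Psma6 have more than 1 promoter. The 16 core promoters are not those of the 16 tested core genes. They include the untested Psmb9 and Psmb11, and none is present for Psma8, Psmb1, Psmb2 or Psmb7. The cap promoters include those of assembly factors, and none is present for Psmc3, Psmd3 or Psmd7. CCAAT was found in 50% of the 16 core promoters, 31.6% of the 19 cap promoters and 33.9% of all promoters. TGANNNNGC was found in 50%, 36.8% and 35.2%. These matches are letters in a window and do not show binding. In the authors' deposited motif table, the GABPA motif, an ETS factor site, was listed for 94 genes of their lower list with a fold enrichment of 2.38 (corrected value 2.79e-12), and those genes include Psma6, Psmb1, Psmb4 and Psmd6. In the authors' deposited motif table of their higher list, GABPA was listed for 60 genes, Psmd11 among them, with a fold of 1.17 and an uncapped corrected value of 56.6.

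Across the whole set, core genes had lower values in the mutant libraries and cap genes were divided. Of the 50 genes, 47 had a mean of at least 10 and were tested, and the lowest mean among them was 28.9, so none passed through 1 group alone. The difference was negative for 36 genes and positive for 11, with a median log2 difference of -0.10, where 53.2% of all tested genes were negative with a median of -0.02. No member passed limma's adjusted p of 0.05, as against 0.00636% of all tested genes lower and 0% higher. At an unadjusted p under 0.05, 13 members (27.7%) were lower and 3 (6.38%) were higher, beside 9.7% and 9.01% of all tested genes. The groups did not overlap for 13 members lower in mutants and 3 higher, beside 12% and 12.3% of all tested genes. With the authors' p-values adjusted over the same genes, 7 members were lower and 0 higher, beside 3.23% and 4.57%; the 7 were Psma1, Psma2, Psma5, Psmb1, Psmb4, Psmc6 and Psmd6. The count of 13 became 14, 6 and 6 when wild-type replicates 1, 2 and 3 were left out in turn. Without mutant replicates 1, 2 and 3 in turn it was 11, 8 and 13. The count of 3 was 0 without wild-type replicate 1 or replicate 2, and 1 without wild-type replicate 3 or mutant replicate 2. Each such fit holds fewer libraries, and no share over all tested genes is given for it. Why the counts moved was not tested. After the correction for GC content and length given further on, 24 of the 47 were negative with a median of -0.02, and 4 were lower and 4 higher at an unadjusted p under 0.05. Of all 15432 genes in the corrected fit, 7483 were negative with a median of 0.007, and 883 were lower and 1387 higher at that level.

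**Figure D1:**
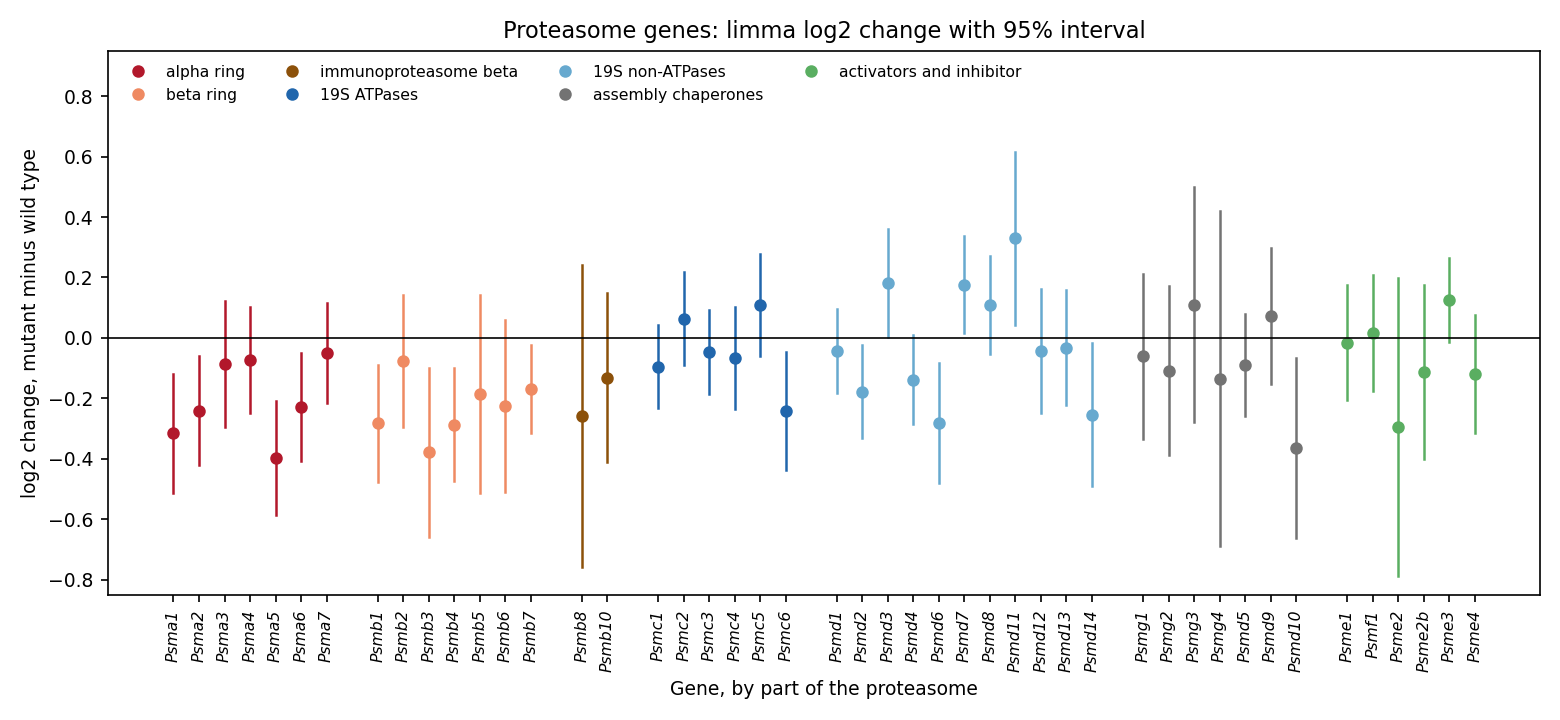
The log2 difference (mutant minus wild type, vertical axis) of 46 tested genes, ordered by their place in the proteasome, with points for the limma estimate and bars for its 95% interval (3 libraries per group). All 16 core genes (reds and brown) lie below 0, while the ATPase and non-ATPase cap subunits (blues) reach from -0.28 to 0.33. Psmd10, a cap gene by name shown with the assembly factors (grey), lies at -0.36.

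The alpha ring, whose subunits form the outer rings and the gate of the barrel, had negative differences in 7 of 7 tested genes, with a median log2 difference of -0.23. Psma5, the alpha5 subunit, stood at 662, 731 and 696 normalized read equivalents in wild-type replicates 1 to 3 and at 570, 487 and 530 in the mutant replicates. The highest mutant library lay below the lowest wild-type library, and mutants averaged 76.0% of wild type. The log2 difference of -0.40 ± 0.09 (SE) had the smallest p of all members (limma adjusted p = 0.109). Psma1, the alpha6 subunit, stood at 1096, 1291 and 1275 in wild-type libraries and at 887, 1034 and 1019 in mutant libraries. These values did not overlap either, with a log2 difference of -0.32 ± 0.09 (SE, limma adjusted p = 0.131). Psma2, the alpha2 subunit, was at 973, 1128 and 1174 against 929, 910 and 924, so the 3 mutant libraries lay close together below all wild-type libraries (log2 difference -0.24, limma adjusted p = 0.165). Psma6, the alpha1 subunit, also did not overlap, at 1088 to 1246 in wild-type and 936 to 1060 in mutant libraries (log2 difference -0.23). The other 3 tested alpha genes overlapped between the groups, and their log2 differences were -0.09 for Psma3, -0.07 for Psma4 and -0.05 for Psma7. After the correction for GC content and length, the median of the alpha ring was -0.04, with 4 of 7 negative. Psma5 was then at -0.29, Psma1 at -0.13, Psma6 at -0.06 and Psma2 at -0.04, while Psma3, Psma4 and Psma7 were positive, at 0.09, 0.10 and 0.05. Psma8, the testis form of an alpha subunit, was below the minimum at 2.92, 6.07 and 3.88 in wild-type and 8.33, 2.10 and 7.08 in mutant libraries, and was not tested.

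The beta ring, which forms the inner chamber, had negative differences in 7 of 7 genes as well, with a median log2 difference of -0.22. Psmb3, a structural subunit, stood at 242, 290 and 322 normalized read equivalents in wild-type libraries and at 224, 197 and 234 in mutant libraries. The groups did not overlap, and mutants averaged 76.6% of wild type (log2 difference -0.38 ± 0.13 SE, limma adjusted p = 0.161). Psmb4, another structural subunit, was at 1174, 1224 and 1351 against 929, 1051 and 1094, again with all mutant libraries below all wild-type libraries (log2 difference -0.29 ± 0.08 SE, limma adjusted p = 0.139). Psmb1, the structural beta6 subunit, was at 1741, 2074 and 2102 against 1739, 1498 and 1620 (log2 difference -0.28 ± 0.09 SE, limma adjusted p = 0.147). Its groups are separated only narrowly, since the lowest wild-type and the highest mutant library nearly meet. Psmb2, a structural subunit, had a log2 difference of -0.08 and overlapping groups. After the correction for GC content and length, the median of the beta ring was -0.14, with 6 of 7 negative. Psmb3 was then at -0.28, Psmb4 at -0.23, Psmb1 at -0.14 and Psmb2 at 0.05.

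The 3 catalytic subunits had similar estimates with unequal spread. Psmb7, the trypsin-like beta2 subunit, stood at 1974, 2199 and 2022 normalized read equivalents in wild-type libraries and at 1860, 1774 and 1872 in mutant libraries, with no overlap (log2 difference -0.17 ± 0.07 SE, limma adjusted p = 0.214). Psmb6, the caspase-like beta1 subunit, was at 874, 877 and 1006 against 625, 839 and 923, and mutant replicate 3 lay within the wild-type range (log2 difference -0.22 ± 0.13 SE, limma adjusted p = 0.369). Without mutant replicate 1 it was -0.06. Psmb5, the chymotrypsin-like beta5 subunit and the main target of proteasome inhibitor drugs, was at 260.5, 280 and 245 against 181, 240 and 279. Its mutant libraries spread widely, with replicates 1 and 2 below all wild-type libraries and replicate 3 within the wild-type range (log2 difference -0.19, 95% interval -0.51 to 0.14, limma adjusted p = 0.526). Without wild-type replicate 2 and mutant replicate 1, the libraries with the strongest GC trends, the log2 difference of Psmb5 was 0.03, and without mutant replicate 1 alone it was -0.015. After the correction for GC content and length, Psmb7 was at -0.05, Psmb6 at -0.15 and Psmb5 at -0.14.

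**Figure D2:**
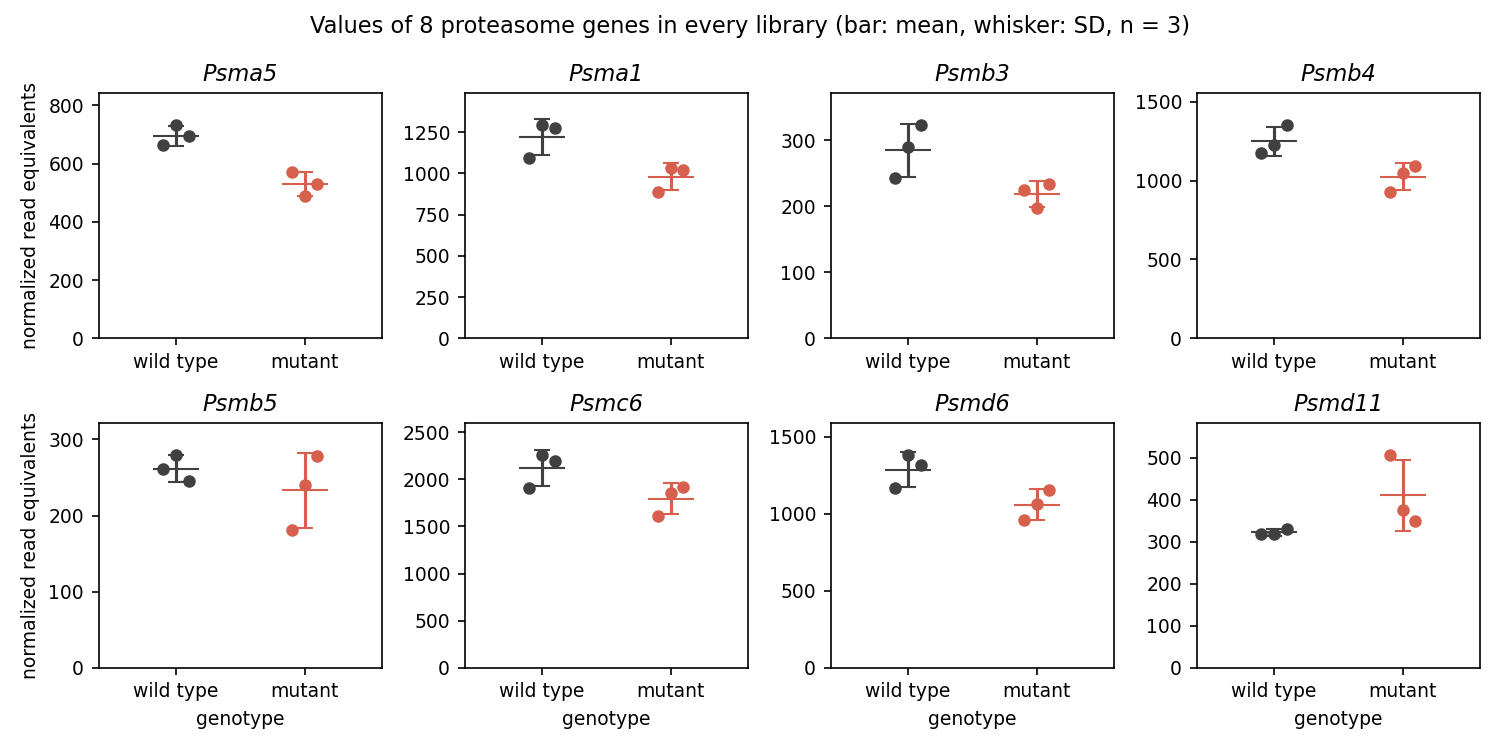
Normalized read equivalents (vertical axes, from 0) of 8 proteasome genes in each of the 3 wild-type and 3 mutant libraries, with the mean as a bar and the SD as a whisker. Mutant libraries lie below all wild-type libraries for Psma5, Psma1, Psmb3, Psmb4 and Psmd6, the groups overlap for Psmb5 and Psmc6, and Psmd11 lies above with mutant replicate 1 the highest at 506.

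The immunoproteasome subunits replace the catalytic beta subunits after interferon exposure and in immune cells. Psmb8, which replaces Psmb5, was at 53.8, 33.3 and 37.3 normalized read equivalents in wild-type libraries and 32.4, 32.5 and 36.5 in mutant libraries, with wild-type replicate 1 standing above the rest (log2 difference -0.26 ± 0.23 SE, limma adjusted p = 0.565). Without that library it was -0.06. Psmb10, which replaces Psmb7, was at 188, 215 and 240 against 210, 175 and 200 (log2 difference -0.13, limma adjusted p = 0.605). Psmb9, which replaces Psmb6, was under the minimum at 5.70, 10.5 and 5.06 against 5.53, 7.07 and 2.83. The thymus subunit Psmb11 was between 0.970 and 5.29 in all 6 libraries. Both tested genes overlapped between the groups. Per kilobase, the summed level of Psmb8, Psmb9 and Psmb10 was 5.85%, 5.82% and 6.40% of that of Psmb5, Psmb6 and Psmb7 in wild-type libraries and 7.12%, 5.58% and 5.76% in mutant libraries, so this share overlapped too. Beside these values, the 11 interferon response and antigen presentation genes summed to 3127 to 3549 in wild-type and 3013 to 3200 in mutant libraries, with 0 of 11 at an unadjusted p under 0.05. The 6 microglia markers summed to 3647 to 3889 and 3627 to 3937, with 0 of 6, and no gene of either list was at 0.

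In the 19S cap, the base ATPases Psmc1 to Psmc6 unfold the substrate and open the gate. Their median log2 difference was -0.06, with 4 of 6 negative and 1 of 6 lower at an unadjusted p under 0.05, beside 9.7% of all tested genes. That gene was Psmc6, at 1902, 2257 and 2197 normalized read equivalents in wild-type and 1608, 1849 and 1922 in mutant libraries, where mutant replicate 3 just exceeded wild-type replicate 1 (log2 difference -0.24 ± 0.09 SE, limma adjusted p = 0.190). Psmc6 has the lowest GC content of the 47 tested members, 37.0%, and its log2 difference was 0.03 after correction for GC content and length. Psmc1 was at 2165, 2274 and 2271 against 2124, 2153 and 2003, without overlap but by a small margin (log2 difference -0.10, limma adjusted p = 0.426, and -0.02 after that correction). Psmc5 had the opposite sign, at 1895, 2024 and 2107 against 2376, 2025 and 2103, with mutant replicate 1 apart from the others (log2 difference 0.11, limma adjusted p = 0.465). Psmc2, Psmc3 and Psmc4 had log2 differences of 0.06, -0.05 and -0.07 and overlapping groups. After the correction for GC content and length, Psmc5 was at 0.17, and 3 of the 6 ATPases were negative. At an unadjusted p under 0.05, 0 ATPases were then lower and 1, Psmc5, was higher, beside 883 and 1387 of all 15432 genes.

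The 11 non-ATPase cap subunits held differences of both signs, 7 negative and 4 positive, with a median log2 difference of -0.04. Psmd6, a lid subunit, was at 1165, 1382 and 1316 normalized read equivalents in wild-type libraries and 959, 1066 and 1156 in mutant libraries (log2 difference -0.28 ± 0.09 SE, limma adjusted p = 0.151). The groups did not overlap, though mutant replicate 3 came close to wild-type replicate 1. Psmd14, the deubiquitinase that cuts ubiquitin chains off the substrate, was at 1386, 1548 and 1572 against 1084, 1233 and 1489, with overlap through mutant replicate 3 (log2 difference -0.25 ± 0.11 SE, limma adjusted p = 0.239, and -0.15 without mutant replicate 1). Psmd2, a large scaffold subunit of the base, was at 2034, 2241 and 2270 against 2006, 1824 and 1955, without overlap (log2 difference -0.18 ± 0.07 SE, limma adjusted p = 0.214). Psmd4, the ubiquitin receptor known as Rpn10, was at 1260, 1312 and 1380 against 1164, 1199 and 1228, also without overlap (log2 difference -0.14 ± 0.07 SE, limma adjusted p = 0.296). After the correction for GC content and length, Psmd6 was at -0.15, Psmd14 at -0.08, Psmd2 at -0.17 and Psmd4 at -0.11.

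Higher values in mutants at an unadjusted p under 0.05 came from 3 lid subunits among the 11 non-ATPases, beside 9.01% of all tested genes. Psmd11, the lid subunit Rpn6 that bridges cap and core, was at 317, 318 and 330.5 normalized read equivalents in wild-type libraries and 506, 376 and 349 in mutant libraries. All mutant libraries lay above the tightly grouped wild-type libraries, mutant replicate 1 farthest (log2 difference 0.33 ± 0.13 SE, limma adjusted p = 0.214). Without that library the log2 difference was 0.17. Psmd7, the lid partner of the deubiquitinase Psmd14, was at 984, 973 and 1002 against 1038, 1182 and 1130 without overlap (log2 difference 0.18 ± 0.07 SE, limma adjusted p = 0.228). Psmd3, a lid subunit, was at 1067, 976 and 1179 against 1200, 1177 and 1268, where wild-type replicate 3 narrowly exceeded mutant replicate 2 (log2 difference 0.18 ± 0.08 SE, limma adjusted p = 0.261, and 0.12 without wild-type replicate 2). Psmd14 and Psmd7, which form a pair in the lid, therefore had estimates of opposite sign, and the difference between these genes was not tested. After the correction for GC content and length, Psmd11 was at 0.39, Psmd7 at 0.25 and Psmd3 at 0.13. The other 4 non-ATPases, Psmd1, Psmd8, Psmd12 and Psmd13, overlapped between the groups, with log2 differences from -0.04 to 0.11.

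The core and the cap were then set side by side in each library, as the mean log2 deviation of the 16 core genes and the 21 cap genes from their 6-library means. The core stood at 0.02, 0.14 and 0.15 in wild-type replicates 1 to 3 and at -0.14, -0.14 and -0.04 in mutant replicates 1 to 3. The cap stood at -0.05, 0.04 and 0.06 and at -0.04, -0.03 and 0.01. The core minus the cap was 0.07, 0.10 and 0.09 in wild-type and -0.10, -0.11 and -0.05 in mutant libraries, so each wild-type library lay above each mutant library. The difference of the mean log2 differences was -0.18, and -0.19 for the 14 constitutive core and 17 cap particle subunits alone. Wild-type replicate 1, the library with the most choroid plexus signal, was the lowest wild-type library in both classes. Wild-type replicate 3, with a choroid plexus sum of 19580.5 against 731 in replicate 2, was the highest in both. A link with that signal was not tested. Leaving out each library in turn gave -0.19 to -0.16 for the difference of the 2 classes. By class, the core had a median log2 difference of -0.23 with 16 of 16 negative, 8 of 16 lower at an unadjusted p under 0.05 and 8 without overlap. The cap had a median of -0.04 with 13 of 21 negative, 5 lower and 3 higher at an unadjusted p under 0.05, and 5 lower and 2 higher without overlap. Of all tested genes, 9.7% were lower and 9.01% higher at that p, and 12% were lower and 12.3% higher without overlap.

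**Figure D3:**
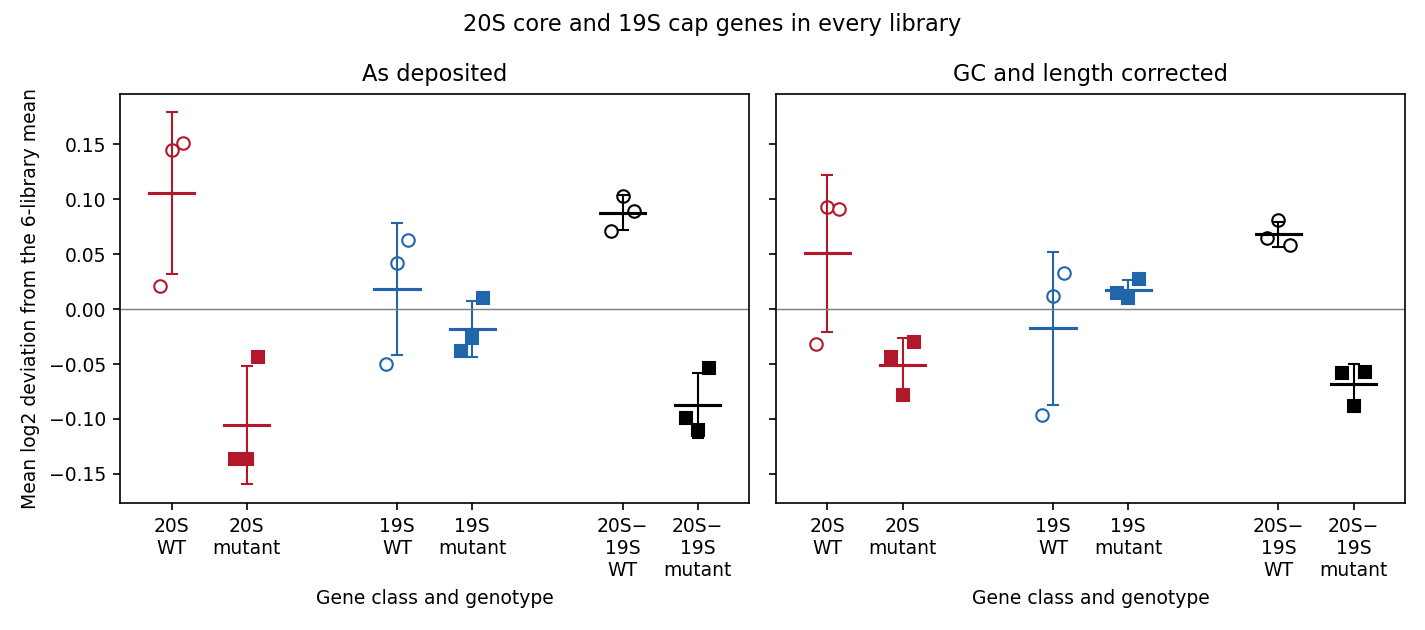
Mean log2 deviation from the 6-library mean (vertical axis) of the 16 core genes, the 21 cap genes and their difference, per library, as deposited (left) and after correction for GC content and length (right), with open circles for wild type (WT), filled squares for mutants, a bar for the mean and a whisker for the SD. Core minus cap lies above 0 in the 3 wild-type and below 0 in the 3 mutant libraries in both panels, while the core alone overlaps between genotypes after correction.

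Base composition moved with part of these values. Over 15432 tested genes with a known transcript, Spearman's rho between the log2 difference and GC content was 0.36, and with length 0.20. The members share libraries and base composition, and the same rho was 0.23 with GC content over the 47 members, 0.03 over the 16 core genes and 0.46 over the 21 cap genes. The median GC content was 50.1% for the core, 49.7% for the cap and 50.2% for all tested genes, and the median transcript length was 1174, 1636 and 2962.5 bases. After a correction of each library for GC content and length, the median log2 difference was -0.13 for the core, with 12 of 16 negative and 3 lower at an unadjusted p under 0.05. The 3 core genes were Psma5, Psmb3 and Psmb4. For the cap the median was 0.03, with 10 of 21 negative, and 1 lower and 3 higher at that level. Of all 15432 genes in the corrected fit, 7483 were negative, 883 lower and 1387 higher at that level. The core minus the cap was then 0.06, 0.08 and 0.06 in wild-type libraries and -0.06, -0.09 and -0.06 in mutant libraries. Without wild-type replicate 2 and mutant replicate 1, a setting chosen after seeing the data, 13 of 16 core genes were negative, 7 of them lower at an unadjusted p under 0.05, and 12 of 21 cap genes were negative. No share over all tested genes is given for that setting.

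**Figure D4:**
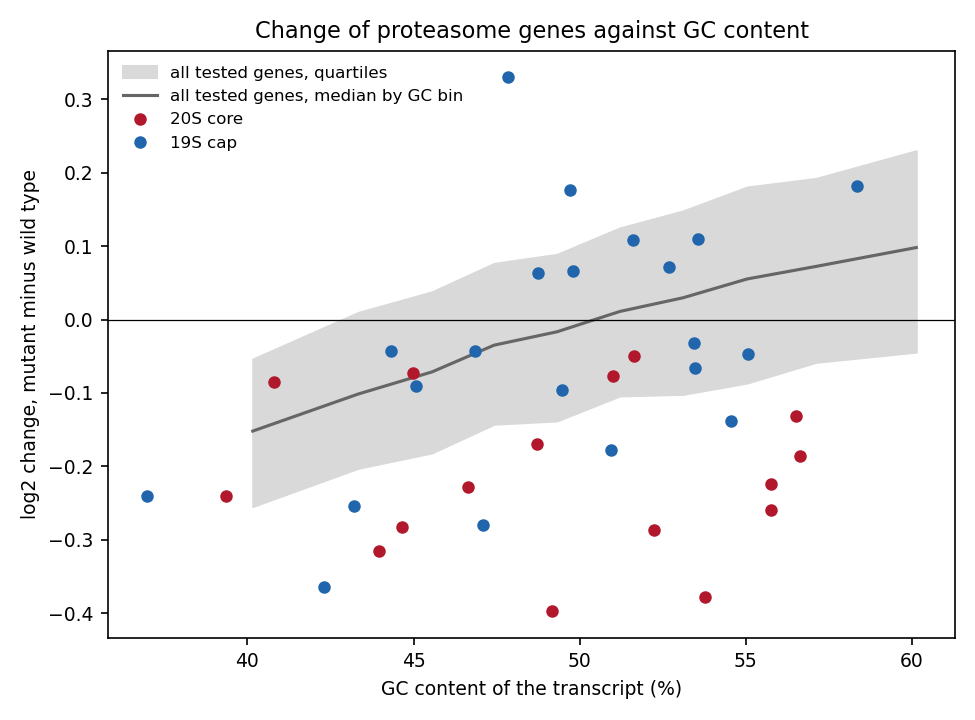
Log2 difference (mutant minus wild type) of the 16 core genes (red) and 21 cap genes (blue) against transcript GC content in percent, over the median (line) and quartiles (grey) of all tested genes in bins of GC content. Over all genes the median runs from -0.15 in the bin of lowest to 0.10 in the bin of highest GC content. Core genes of low and of high GC content both lie below 0.

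Activators dock on the core in place of the 19S cap. None of the 6 activator and inhibitor genes had an unadjusted p under 0.05, and their median log2 difference was -0.06. Psme3, the nuclear activator PA28 gamma, was at 1649, 1640 and 1684 normalized read equivalents in wild-type and 1864, 1843 and 1719 in mutant libraries, all mutants above all wild types (log2 difference 0.13 ± 0.06 SE, limma adjusted p = 0.311). Psme4, the activator PA200, was at 2238, 2291 and 2032 against 1760, 2108 and 2190, with overlap (log2 difference -0.12, limma adjusted p = 0.488), and its estimate was 0.01 without wild-type replicate 2 and mutant replicate 1. Psme2 was at 28.1, 34.9 and 32.8 against 22.9, 29.8 and 25.1 and Psme2b at 271, 248 and 279 against 246, 206 and 291. Psme2 and Psme2b are near-identical copies, so how reads were divided between them is uncertain. The interferon-inducible Psme1 and the inhibitor Psmf1 had log2 differences of -0.02 and 0.02. After the correction for GC content and length, the median of the 6 genes was 0.03, with 2 of 6 negative. Psme3 was then at 0.16. It was the 1 gene of the 6 at an unadjusted p under 0.05 in the corrected fit, beside 883 lower and 1387 higher of all 15432 genes.

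Assembly factors help the rings and the base to form and then leave. Of 7 such genes, Psmd10, the base chaperone gankyrin, had the largest difference, at 172, 241 and 202 normalized read equivalents in wild-type and 161, 158 and 153 in mutant libraries. The groups did not overlap, and the wild-type libraries spread more widely than the mutant ones (log2 difference -0.36 ± 0.14 SE, limma adjusted p = 0.194, and -0.24 without wild-type replicate 2). After the correction for GC content and length, Psmd10 was at -0.17. Psmg2, a chaperone of the alpha ring, was at 195, 241 and 229 against 192, 191 and 234 (log2 difference -0.11, limma adjusted p = 0.677). Psmd5, a base chaperone, was at 787, 878 and 867 against 829, 761 and 787 (log2 difference -0.09, limma adjusted p = 0.552). Psmg1, Psmg3, Psmg4 and Psmd9 overlapped between the groups, with log2 differences from -0.13 to 0.11. Psmc3ip, the member that is no proteasome gene, had a log2 difference of 0.07.

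Levels per kilobase of transcript, a scale that allows comparison between genes, ranged widely among subunits that are present in equal number in the complex. In wild-type libraries the constitutive core genes ran from 148 normalized read equivalents per kilobase for Psma3 to 1780 for Psmb7. The ATPases were closer together, from 732 for Psmc2 to 1560 for Psmc3. Non-ATPases ran from 113 for Psmd11, the subunit with the largest positive difference, to 1047 for Psmd1. Assembly factors were lower, from 61.4 for Psmg3 to 209 for Psmg2. In mutant libraries Psmb7 stood at 1582, Psma3 at 140, Psmc2 at 764 and Psmd11 at 144. These levels depend on which transcript of a gene is annotated, and 7 members have 2 transcript rows.

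**Figure D5:**
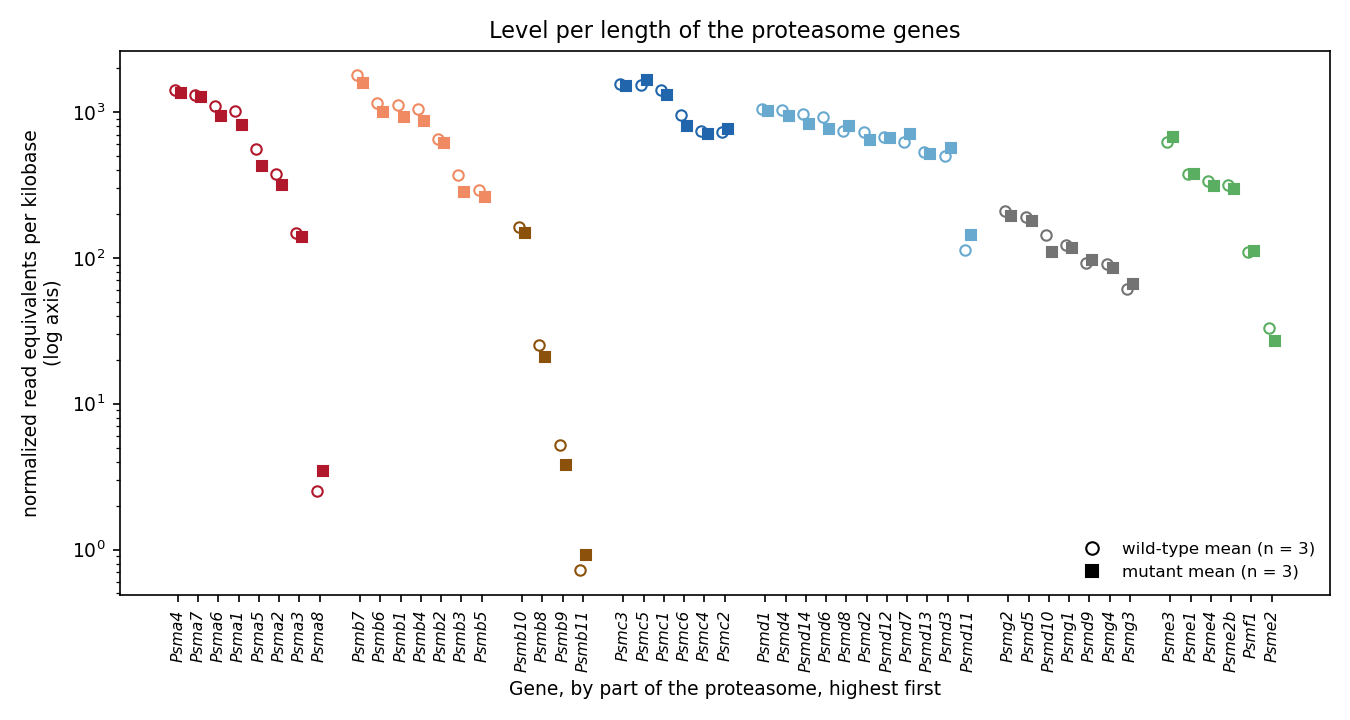
Normalized read equivalents per kilobase (log axis) of 49 proteasome genes in wild-type (open circles) and mutant (squares) libraries, as means of 3, ordered by place in the proteasome and by level. Differences between genes, from 0.723 for Psmb11 to 1780 for Psmb7 in wild type, are far larger than differences between genotypes.

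The proteasome works with ubiquitin genes, bound factors, transcriptional regulators and shuttles, and 4 lists of such partners were read from the same fit, where 9.7% of all tested genes were lower and 9.01% higher at an unadjusted p under 0.05. Of the 5 tested ubiquitin and E1 genes, 0 had an unadjusted p under 0.05 and the median log2 difference was 0.05. Of 11 proteasome-bound genes without a Psm name, 2 were lower and 1 was higher at an unadjusted p under 0.05, with a median of -0.06. The lower genes were the deubiquitinase Usp14 (log2 difference -0.19) and the thioredoxin-like Txnl1 (-0.18), and the higher gene was the ubiquitin receptor Adrm1 (0.25), with limma adjusted p-values of 0.258, 0.253 and 0.252. After the correction for GC content and length, Usp14 was at -0.05, Txnl1 at -0.03 and Adrm1 at 0.19. At an unadjusted p under 0.05, 0 genes of the list were then lower and 1 higher, beside 883 and 1387 of all 15432 genes. Of 8 genes of the transcriptional control of proteasome genes, 1 was lower, and the median was -0.06. That gene was Ngly1, the deglycosylase known to be needed for the activation of Nfe2l1, at 576, 648 and 599 normalized read equivalents in wild-type and 402, 483 and 484 in mutant libraries. The groups did not overlap, and mutants averaged 75.1% of wild type (log2 difference -0.42 ± 0.10 SE, limma adjusted p = 0.118, and 0.00246 with the authors' p-values). After the correction it was at -0.28. Nfe2l1, the transcription factor that drives proteasome genes when the protease is impaired, had a log2 difference of 0.13 (limma adjusted p = 0.327) with overlapping groups. Ddi2, the protease that cuts Nfe2l1, was at 805 to 822 in wild-type and 837 to 957 in mutant libraries (log2 difference 0.13, limma adjusted p = 0.349).

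Of 10 shuttle and unfoldase genes, 2 were lower and 2 higher at an unadjusted p under 0.05, with a median log2 difference of 0.01. Ubqln2, a shuttle that carries ubiquitinated proteins to the proteasome, was at 1209, 1250 and 1195 normalized read equivalents in wild-type and 1619, 1513 and 1346 in mutant libraries, with no overlap (log2 difference 0.29 ± 0.08 SE, limma adjusted p = 0.129). Its relative Ubqln4 was at 1752, 1545 and 1646 against 2083, 1807 and 1903, also with no overlap (log2 difference 0.23, limma adjusted p = 0.160). Faf1, an adaptor of the unfoldase, and Vcp, the unfoldase itself, were the lower genes, with log2 differences of -0.20 and -0.14 and limma adjusted p-values of 0.236 and 0.266. With the authors' p-values adjusted over the tested genes, Ubqln2 was at 0.00537 and Ubqln4 at 0.0330, and Faf1 was at 0.113 and Vcp at 0.142. After the correction, 1 gene of the list was lower and 2 were higher, with Ubqln2 at 0.29, Ubqln4 at 0.16, Faf1 at -0.18 and Vcp at -0.13.

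The authors' deposited ontology table of genes lower in mutants names 11 members among its 787 genes, Psma1, Psma2, Psma5, Psma6, Psmb1, Psmb3, Psmb4, Psmc6, Psmd2, Psmd6 and Psmd14. In that table the term for the whole proteasome complex held 13 genes, the 11 members among them. Its fold enrichment was 5.175 and its Bonferroni-corrected value 0.0250. The term for the proteasome core complex held 7 genes with a fold enrichment of 11.0 and a Bonferroni-corrected value of 0.0367. The term for the proteasome regulatory particle held 4 genes with a fold of 5.47 and a corrected value of 1. The authors' deposited table of the 930 higher genes names 1 member, Psmd11, and its term for the proteasome complex had a fold of 1.67 and a corrected value of 1. The authors chose these lists on the same 6 libraries, so they are not independent of the values above. The members lie on 16 chromosomes, and 3 pairs neighbour each other with at most 1 protein-coding gene between them, Psmb5 with Psmb11, Psme1 with Psme2 and Psmb8 with Psmb9.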

How the data were processed

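Libraries were stranded and made from hippocampal total RNA after removal of ribosomal RNA, per the labels' protocols. The submitters' processing notes name GSNAP, mm9 and DESeq2, with roles and settings not given in the sources used here. The authors' deposited table holds normalized signal, read as base coverage because 100% of values are whole multiples of a library's step within a tolerance of 0.01. No source states this unit, so no count model was run. The authors also deposited a p-value and a score per transcript, and tables with counts of genes, a fold enrichment (ratio) and a corrected p-value or score per term or motif.

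Groups follow the genotype label. Coverage was divided by 42. Genes with a mean of at least 10 entered limma 3.58.1 (R 4.3.3) as log2(value + 1), two-sided, with Benjamini-Hochberg adjustment over 15717 genes. The pseudocount understates differences of low genes. An exact permutation test of 3 against 3 cannot go below 0.1. GC content and length came from GENCODE M21 transcripts for all 50 members, and the correction fitted splines with 5 degrees of freedom. The limma fit was checked on simulated data with independent values, no GC trend and planted changes larger than the difference of any member. That check does not cover differences of the size found in the members. Members and lists were chosen with earlier results of these data known. Named genes were the catalytic and immunoproteasome subunits, Psmd4, Psmd14, the 3 smallest p-values per class and partner list, members opposite in sign to their class at an unadjusted p under 0.05, and Ptchd1. Other pseudocounts, filters, scalings, weights and left-out libraries were tried. Tested members held between 17.7 and 4497 unnormalized read equivalents in a library, and 5 of them averaged under 100, where counting error is largest. RefSeq names 6 pseudogenes of 4 members, whose reads may not be separable.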

Additional observations from a re-analysis of the deposited data

How the results depend on the processing

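The log2 difference of 27 named members was refitted under 16 alternatives, and 419 of 430 values kept their sign and their side of the adjusted p threshold. Library quality weights brought 6 members under a limma adjusted p of 0.05 (Psma1, Psma2, Psma5, Psmb1, Psmb3 and Psmb4, 0.0216 to 0.0436). The share of all tested genes under that threshold with the weights is not given, so the 6 cannot be set against it. The authors' p-values gave 7 lower members, beside 3.23% of all tested genes. The sign turned for Psmb5 (0.034), Psme4 (0.011) and Psmg2 (0.0021) when wild-type replicate 2 and mutant replicate 1 were both left out, an alternative chosen after seeing the data, and for Psmc6 (0.027) and Psmg2 (0.060) with the GC and length correction. Over all 47 tested members, that correction turned 12 from negative to positive, the others being Psma3, Psma4, Psma7, Psmb2, Psmd1, Psmd12, Psme1, Psme2b, Psmg1 and Psmg4. That correction took the core median to -0.13, the cap median to 0.027, the core minus the cap to -0.14 and the count of lower members at an unadjusted p under 0.05 from 13 to 4. Without any filter on low values the core minus the cap was -0.13, as 3 low genes enter. With both libraries left out, 8 members were lower and 1 higher. Leaving out each library in turn gave 6 to 14 lower members, 0 to 2 higher members, a cap median of -0.095 to -0.027, a core median of -0.26 to -0.19 and 0 members past the adjusted threshold. Shares over all tested genes are not given for the fits with libraries left out. Where not stated, the cause was not tested. No paired analysis was possible because the titles give each library its own number and replicate numbers follow accession order. Low coverage limits Psma8, Psmb9 and Psmb11, which were not tested.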
